A study of Rattus norvegicus with 64 samples.

Results

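The 7 genes described here are a set read as signs of nerve in the reconstructed bladder wall: S100b, Sox10, Mbp and Ngfr, which mark Schwann cells, and Prph, Uchl1 and Gap43, which mark nerve fibres. They were chosen by name, through the RefSeq transcript that the array design gives each probe. All 7 had a probe, and they hold 9 of the 30367 gene probes on the array, since S100b and Mbp have 2 probes each. For a gene with several probes the one with the highest mean signal over all arrays stood for the gene in counts.

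Every sample was total RNA from the reconstructed part of a urinary bladder wall of a male Wistar rat, after native bladder tissue was cut away. Each rat had part of its bladder removed (hemicystectomy) and replaced with bladder acellular matrix (BAM), a bladder wall stripped of its cells. In 4 groups the matrix carried adipose derived stem cells (ADSCs, stromal cells grown from retroperitoneal fat of male Wistar rats to the third passage), and in the other 4 it carried no cells. Walls were taken 7, 30, 90 or 180 days after surgery, and each of the 8 groups of graft and day had 8 arrays of separate rats, 64 in all. Donors and recipients were syngeneic, no unoperated bladder was analysed here, and RNA of seeded cells cannot be told apart from RNA of host cells that grew into the graft.

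Bladder nerves are bundles of axons wrapped by Schwann cells. The cell bodies of these axons lie outside the bladder wall, in pelvic and spinal ganglia. Cutting a nerve leaves Schwann cells without axons. These cells then turn down myelin genes such as Mbp and turn up genes such as Ngfr, while growing axons carry Gap43 and Prph. An RNA reading of a bladder wall therefore sees the glial cells in full but only the RNA that axons carry. In RNA of a reconstructed wall, fewer cells of a type and less RNA per cell cannot be told apart.

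Values are log2 signals relative to the 75th percentile of the array's gene spots, called normalised log2 signal below, so a value of 0 is the level of that percentile. A difference was called at a Benjamini-Hochberg adjusted p below 0.01 over all probes together with a fold change above 1.5. Each group lay on a slide of its own, so slide and group cannot be told apart in any comparison. The slides of 7 and 30 days had 1 scan date and those of 90 and 180 days another. On the later arrays the local background was higher (99 to 366 against 42 to 52 units), and fewer gene spots were well above background (35.5% to 64.6% against 73.3% to 95.6%). The grafts also differed at 90 days, where the median local background was 342.5 units on BAM only and 107.5 with ADSCs. Of the gene spots at 90 days, 35.5% to 58.5% were well above background on BAM only and 54.3% to 64.6% with ADSCs. Smooth muscle markers, which define the bladder wall, were well above background on all 64 arrays for 7 of 7 measured genes, and urothelial markers for 5 of 7. Of 8 neuron markers measured, only 1, Uchl1, was well above background on all 64 arrays, and of 7 Schwann cell markers 2 were, S100b and Mbp.

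The promoter sequences of the members that changed most are given here so that their composition can be seen beside their values. They are the 250 bases before the transcription start, 5' to 3', from RefSeq, and 3 members had an entry that is printed. Capitals mark the letters of 5 motifs, each searched on both strands. They are TATAAA for the TATA box, GGGCGG for the GC box, AGATAA for the core of GATA factors, AGGTCA for the nuclear receptor site and ACAAAG for the core of SOX factors.
Uchl1, GRCr8 chr14:41849418-41849667, minus strand: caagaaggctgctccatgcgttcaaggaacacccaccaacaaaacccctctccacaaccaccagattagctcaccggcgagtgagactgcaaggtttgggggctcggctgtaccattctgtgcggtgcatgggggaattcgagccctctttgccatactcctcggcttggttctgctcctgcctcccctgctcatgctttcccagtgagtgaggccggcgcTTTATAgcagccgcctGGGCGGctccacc
S100b, GRCr8 chr20:12381082-12381331, minus strand: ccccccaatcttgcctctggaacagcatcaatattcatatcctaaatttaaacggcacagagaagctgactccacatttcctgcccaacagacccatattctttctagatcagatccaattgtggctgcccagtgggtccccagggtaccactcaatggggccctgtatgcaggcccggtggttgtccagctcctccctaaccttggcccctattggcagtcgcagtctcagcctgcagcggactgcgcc
Prph, GRCr8 chr7:132097039-132097288, plus strand: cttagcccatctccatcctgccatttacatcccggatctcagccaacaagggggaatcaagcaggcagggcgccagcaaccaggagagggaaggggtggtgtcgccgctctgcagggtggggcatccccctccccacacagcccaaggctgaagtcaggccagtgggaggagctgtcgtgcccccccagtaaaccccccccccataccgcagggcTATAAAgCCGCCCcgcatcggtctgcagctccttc
The Uchl1 and Prph windows each held a TATA box and a GC box, and the S100b window held none of the 5 motifs. Over the 33469 promoter windows of the same length, 12.9% held the TATA box, 30.5% the GC box, 10.3% the GATA core, 14.1% the nuclear receptor site and 16.3% the SOX core. The Uchl1 window held 11 CpG, the Prph window 9 and the S100b window 5, where the median over all windows was 5. A match is a description of letters and not a bound site.

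The first question was whether seeding the matrix with ADSCs changed the nerve genes. Of the 7 genes, 1 was called higher with ADSCs at 7 days, where 2.11% of all probes were called higher and 5.62% lower. At 90 days 1 was called higher, where 3.88% of all probes were called higher and 8.6% lower. None was called at 30 days (1.67% of all probes in either direction, 1 member at an unadjusted p below 0.05) or at 180 days (2.44%, 0 members at an unadjusted p below 0.05) in the limma fit. The gene called at 7 and at 90 days was Uchl1, the ubiquitin hydrolase also known as PGP9.5. Its call at 90 days was between values capped by saturation, so its direction there cannot be told. The median difference over the 7 members was 0.22, 0.19, 0.15 and 0.00 on the log2 scale at 7, 30, 90 and 180 days, and that over all probes was -0.16, 0.11, -0.27 and 0.06.

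**Figure D1:**
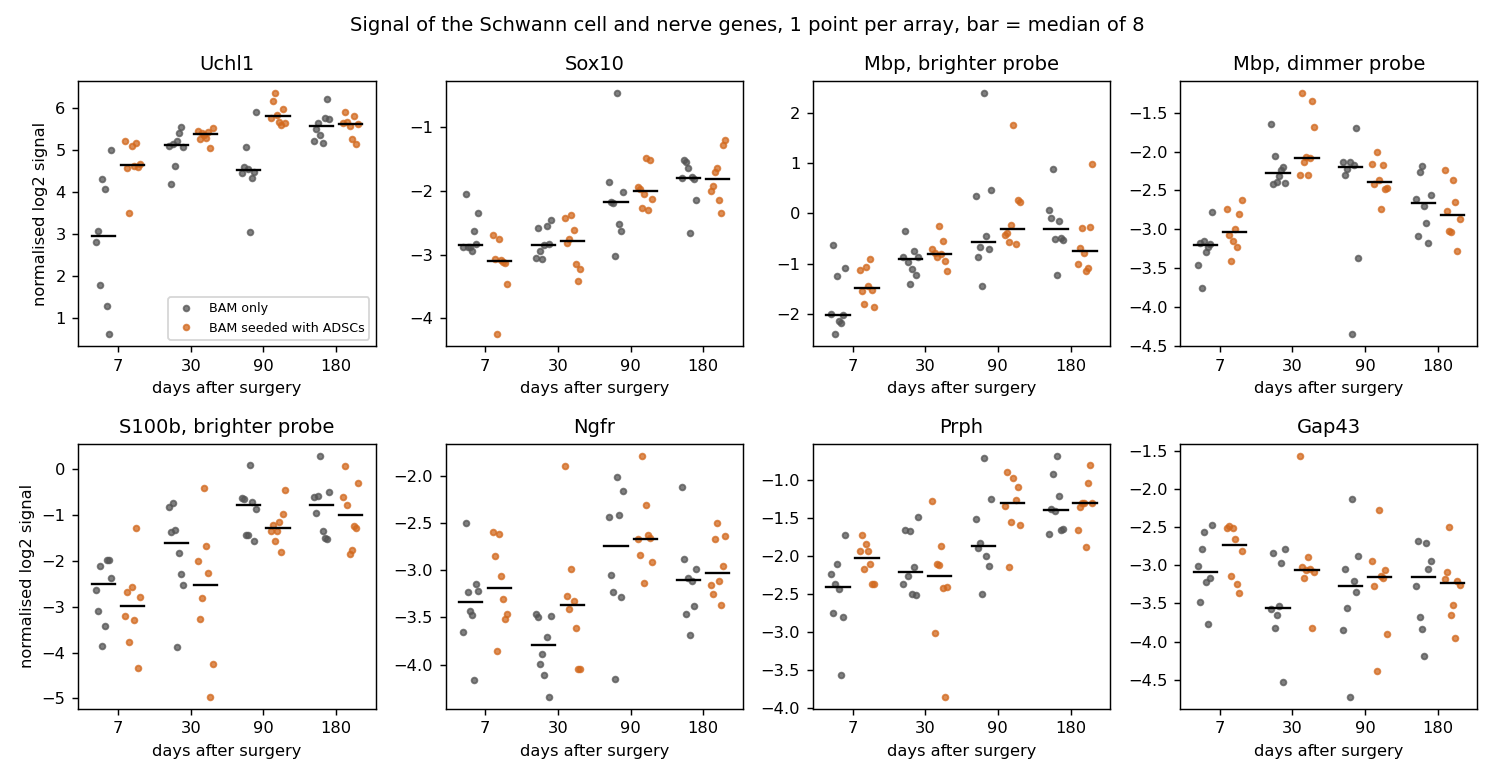
Normalised log2 signal (vertical axis) of each array by day (horizontal axis), with BAM only in grey, BAM seeded with ADSCs in orange and the median of 8 arrays as a bar. Panels have their own vertical scale. Uchl1 on BAM only at 7 days spread from 0.61 to 5.00, and the 2 probes of Mbp followed different courses.

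Uchl1 on BAM only at 7 days ranged from 0.61 over a median of 2.94 to 5.00, and on BAM seeded with ADSCs from 3.50 over 4.64 to 5.21. The seeded arrays lay in the upper part of a much wider unseeded range, and 3 of the 8 seeded arrays were above every unseeded one. The difference was 1.81 on the log2 scale (SE 0.34, 3.50-fold, adjusted p = 8.33e-05, limma), or 1.97 above the median of all probes. It lost its call when only these 2 groups were fitted (adjusted p = 0.0314), a fit in which the unseeded spread of 1.56 (SD) is not averaged with that of the other groups. At 30 days the medians were 5.12 and 5.38, the arrays overlapped, and the difference of the measured values was 0.30 (95% interval -0.36 to 0.97, adjusted p = 0.605). The spot was saturated on 7 of 8 seeded and 1 of 8 unseeded arrays at 30 days, so the seeded side is capped and this difference is not exact.

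At 90 days Uchl1 ranged from 3.05 over 4.51 to 5.90 on BAM only and from 5.60 over 5.80 to 6.35 with ADSCs. A single unseeded array, replicate 8, reached into the seeded range. The difference of the measured values was 1.32 on the log2 scale (SE 0.34, adjusted p = 0.00266, limma). The spot was saturated on 8 of 8 seeded and 6 of 8 unseeded arrays, so both groups are capped and no fold is given. Quantile normalisation left 0.75 (adjusted p = 0.0889), and leaving out replicate 5 of BAM only left 1.10 (adjusted p = 0.0109). At 180 days the medians were 5.57 and 5.63, the spot was saturated on 8 of 8 unseeded and 4 of 8 seeded arrays, and the difference of these capped values was 0.01 (95% interval -0.66 to 0.67).

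The measured graft difference in Uchl1 was 1.80 lower at 180 than at 7 days on the log2 scale (-1.80, SE 0.48, adjusted p = 0.00553, where 1.91% of all probes had a lower and 7.44% a higher graft difference at 180 than at 7 days). Saturation, on 8 of 8 unseeded and 4 of 8 seeded arrays at 180 days against 0 of 8 and 1 of 8 at 7 days, limits the difference that could be read at the later day, so whether the graft difference itself differed between these days cannot be told from this probe. The contrasts of 30 with 7 days (-1.50, adjusted p = 0.0489) and of 180 with 90 days (-1.31, adjusted p = 0.043) missed the threshold of 0.01. For the other 6 members no pair of days passed by the probe that stands for the gene, the lowest adjusted p being 0.111 (Prph, 90 against 30 days). Of all probes, 1.05% passed for 30 against 7 days, 6.95% for 90 against 7, 11.4% for 90 against 30, 2.68% for 180 against 30 and 11.3% for 180 against 90.

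Uchl1 is expressed by neurons but not by them alone, and its array-to-array pattern here was that of the bladder lining. Taking each array's deviation from the mean of its group over 64 arrays, the 3 genes most like Uchl1 among 11168 were Upk1a (r = 0.93), Upk3a (0.92) and Upk1b (0.91), which encode uroplakins, the plaque proteins of urothelial umbrella cells. For Upk1a the rank correlation was 0.82, and r was 0.89 without the 2 arrays farthest from the median, 0.94 within the 7 and 30 day arrays and 0.87 within the later ones. The correlation of Uchl1 with the other 6 members ran from -0.17 to 0.16. The points of an array share its RNA, its hybridisation and its dissection, so the values are descriptions.

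The urothelial markers moved beside Uchl1. At 7 days 5 of 7 were called higher with ADSCs, namely Upk2 (2.87), Upk1a (2.36), Upk3a (2.28), Krt7 (2.06) and Upk1b (1.79), and the median of the 7 was 2.06. The summed level of the 7 markers ran from 1.12 to 6.69 on BAM only and from 5.28 to 7.21 with ADSCs at that day, on the log2 scale. At 90 days none of the 7 was called (median 1.10, with Upk1a at 1.38 and adjusted p = 0.0151), and the summed levels ran from 4.44 to 7.48 and from 7.24 to 8.63. At 180 days their median was -0.36. The part of the urothelium in the Uchl1 difference was not tested. By these values Uchl1 went against its label as a nerve gene in this tissue.

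**Figure D2:**
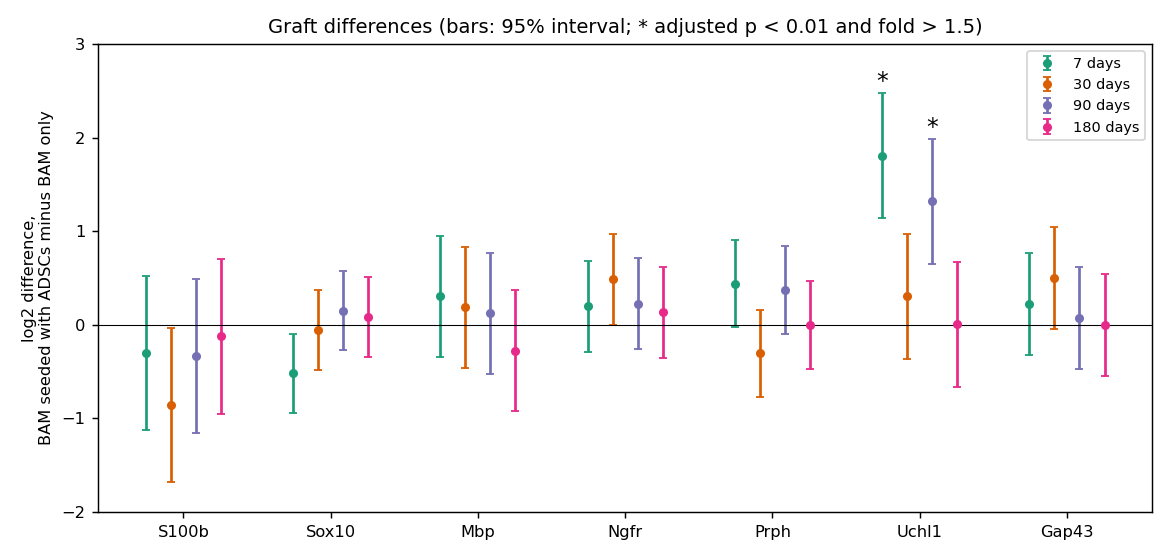
Log2 difference between BAM seeded with ADSCs and BAM only (vertical axis) for the 7 genes at 4 days, with 95% intervals of 1.96 SE and a star where the difference was called. Only Uchl1 at 7 days (1.81) and at 90 days (1.32, between values capped by saturation) carries a star.

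Sox10 is the transcription factor of the Schwann cell lineage. At 7 days it ranged from -2.94 over -2.85 to -2.05 on BAM only and from -4.25 over -3.10 to -2.69 with ADSCs. Of the 8 seeded arrays, 6 lay below every unseeded array, but the difference of -0.52 (SE 0.22) had an adjusted p of 0.0885. At 30, 90 and 180 days the differences were -0.06, 0.15 and 0.08, with 95% intervals between -0.48 and 0.58 over the 3 days.

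Mbp encodes myelin basic protein, a main structural protein of myelin. By its first probe the medians on BAM only were -2.01, -0.91, -0.56 and -0.31 at 7, 30, 90 and 180 days, and with ADSCs they were -1.48, -0.80, -0.31 and -0.74. The grafts overlapped at every day. The graft differences were 0.30, 0.19, 0.12 and -0.28 with SE 0.33, and none passed. By the second probe they were 0.25, 0.31, 0.20 and -0.09 with SE 0.21, and none passed either.

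S100b is a calcium-binding protein of Schwann cells that fat cells also carry. At 7 days it ranged from -3.86 over -2.51 to -1.98 on BAM only and from -4.33 over -3.00 to -1.30 with ADSCs, and at 30 days from -3.88 over -1.61 to -0.73 and from -4.96 over -2.53 to -0.41. The grafts overlapped at all days, and the spread was the widest among the members at 30 days (SD 1.45 with ADSCs). The difference was below 0 at each of the 4 days (-0.30, -0.86, -0.33 and -0.13, SE 0.42), and the lowest adjusted p was 0.186. The second S100b probe was well above background on 3 of 64 arrays and gives no level.

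Ngfr is the p75 neurotrophin receptor, which Schwann cells without axons show. Its graft differences were 0.20, 0.49, 0.23 and 0.13 with SE 0.25, and at 30 days 5 of 8 seeded arrays exceeded every unseeded one (adjusted p = 0.203). Normexp background correction turned the 7 day value to -0.02. Ngfr was well above background on all 32 arrays of 7 and 30 days but on 4 of 8 for BAM only at 90 days, 5 of 8 at 180 days and 6 of 8 with ADSCs at 180 days.

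Of the axonal genes, Prph encodes peripherin, the intermediate filament of peripheral neurons. Its difference was 0.44 at 7 days (SE 0.24, adjusted p = 0.216), -0.31 at 30 days, 0.37 at 90 days and 0.00 at 180 days, and the arrays of the grafts overlapped at every day. Gap43 encodes a growth cone protein of regrowing axons, which Schwann cells without axons also make. Its differences were 0.22, 0.50, 0.07 and 0.00 with SE 0.28, and the lowest adjusted p was 0.244. The 95% intervals of these 2 genes reached from -0.77 to 1.05 over the 4 days.

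The second question was how the nerve genes moved between follow-up days. From 7 to 30 days, which share a scan date, Uchl1 rose on BAM only by 2.17 (SE 0.34, adjusted p = 1.94e-06), and 6 of 8 arrays at 30 days were above every array at 7 days. That was 1 of 7 members, where 4.44% of all probes were called higher and 4.21% lower. In the same contrast 4 of 7 urothelial markers rose, with a median of 1.80 over the 7. With ADSCs no member was called by its first probe (8.06% of all probes in either direction, 0 members at an unadjusted p below 0.05), and the measured values of Uchl1 differed by 0.67 (adjusted p = 0.127), with 7 of 8 arrays at 30 days above every one at 7 days. The spot was saturated on 7 of these 8 arrays at 30 days and on 1 of 8 at 7 days, so 0.67 is capped and is not to be set against the rise on BAM only.

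Mbp gave 2 answers from 7 to 30 days. By its second probe (the design pairs it with another RefSeq transcript of Mbp) BAM only ranged from -3.76 over -3.21 to -2.78 at 7 days and from -2.42 over -2.28 to -1.65 at 30 days. With ADSCs it ranged from -3.41 over -3.04 to -2.63 and from -2.31 over -2.08 to -1.25. In each graft all 8 arrays at 30 days were above all 8 at 7 days, and Mbp by this probe rose by 1.04 on BAM only (SE 0.21, adjusted p = 0.000152) and by 1.11 with ADSCs (SE 0.21, adjusted p = 8.42e-05). By the first probe the differences were 0.77 (adjusted p = 0.0945) and 0.65 (adjusted p = 0.122), and the days overlapped. Quantile normalisation left 0.92 with ADSCs for the second probe (adjusted p = 0.0281).

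The 2 Mbp probes also ran against each other from array to array. Their deviations from the group means had r = -0.47 over 64 arrays and -0.21 without the 2 arrays farthest from the median. The first probe was most like Reep2 (0.82), Agtpbp1 (0.80) and Ppp1r14a (0.80), and had r = 0.79 with Sox10. The second was most like Pdlim1 (0.82), Dyrk3 (0.79) and C1galt1 (0.79), and its median r with 6 Schwann cell markers was -0.48. Which Mbp transcripts each probe sees was not tested.

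From 30 to 90 days more members rose, but the scan date changed between these days and cannot be told apart from time. On BAM only 2 of 7 rose, where 35.2% of all probes were called higher. Sox10 went from a median of -2.84 to -2.18 (difference 0.68, SE 0.22, adjusted p = 0.00508) and Ngfr from -3.80 to -2.75 (0.97, SE 0.25, adjusted p = 0.000636). Their count is near the share of all probes that rose. The median of all probes rose by 0.30, and after centring on it Sox10 was at 0.39 and no longer called, while Ngfr was at 0.67 and was. Ngfr was well above background on 8 of 8 of these arrays at 30 days but on 4 of 8 at 90 days. The median local background of the 2 groups was 50 and 342.5 units, and its part in the Ngfr rise was not tested.

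With ADSCs 3 of 7 rose from 30 to 90 days, where 17.8% of all probes were called higher. Sox10 ranged from -3.42 over -2.78 to -2.38 at 30 days and from -2.31 over -2.01 to -1.49 at 90 days. The days did not overlap for this gene, and the difference was 0.89 (SE 0.22, adjusted p = 0.000567). S100b rose by 1.47 (SE 0.42, adjusted p = 0.00309) and Prph by 1.03 (SE 0.24, adjusted p = 0.000336), with overlapping days. Uchl1 also did not overlap between these days, with a difference of 0.53 (adjusted p = 0.192) and saturated spots on 7 of 8 and 8 of 8 arrays. Fitting only these 2 groups ended the calls of S100b (adjusted p = 0.0274) and Prph (adjusted p = 0.011), and the S100b call also ended without replicate 7 (1.15, adjusted p = 0.0174) or replicate 8 (1.25, adjusted p = 0.0129) with ADSCs at 30 days. Smooth muscle markers rose in the same contrasts, 5 of 7 on BAM only and 6 of 7 with ADSCs, and their part in the member changes was not tested.

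From 90 to 180 days no member was called on either graft in the limma fit. On BAM only 9.39% of all probes were called, and 1 member, Uchl1, had an unadjusted p below 0.05 (1.02, adjusted p = 0.0225, between values saturated on 6 of 8 and 8 of 8 arrays). With ADSCs 4.14% of all probes were called and no member had an unadjusted p below 0.05. Gap43 and, by its first probe, Mbp were called in none of the 10 contrasts of grafts and days. The Gap43 medians on BAM only were -3.09, -3.55, -3.28 and -3.16 at 7, 30, 90 and 180 days.

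**Figure D3:**
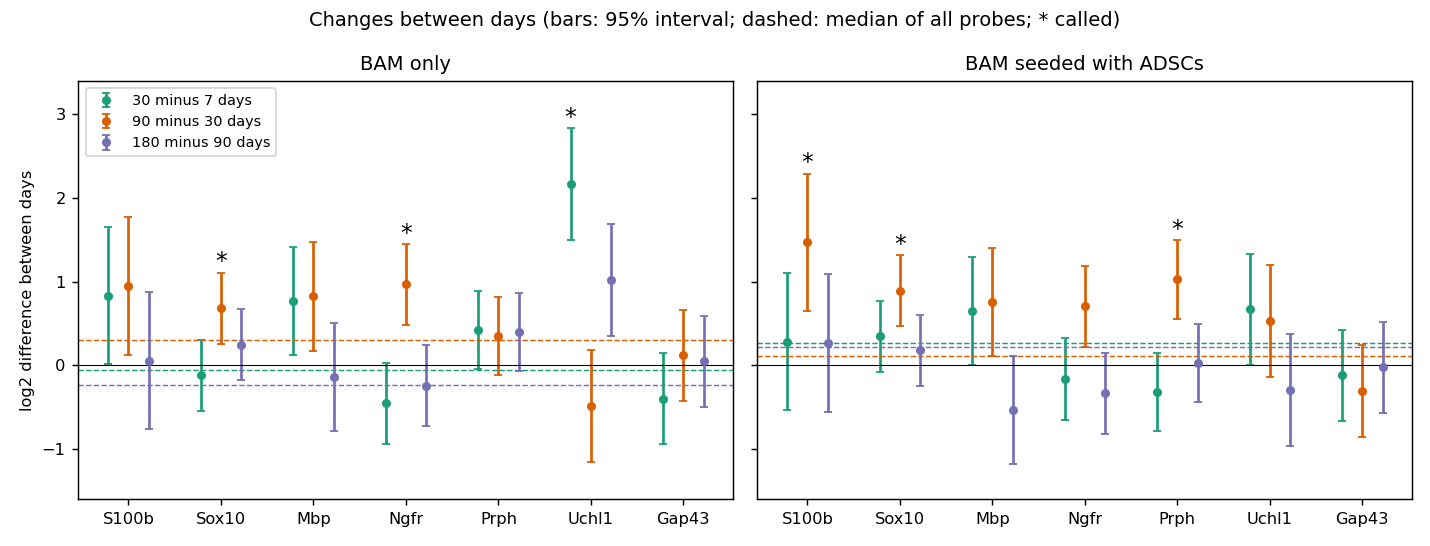
Log2 difference between successive follow-up days (vertical axis) for the 7 genes on BAM only (left) and BAM seeded with ADSCs (right), with 95% intervals of 1.96 SE, the median of all probes as a dashed line and a star where a change was called. Uchl1 rose by 2.17 on BAM only from 7 to 30 days, and most other stars belong to the step from 30 to 90 days.

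Across all 64 arrays, Sox10, Mbp, Ngfr, Prph and Gap43 varied together, with r from 0.39 to 0.79 between any pair of them. Within the 7 and 30 day arrays these pairs ran from 0.27 (Mbp with Gap43) to 0.78 (Prph with Gap43). Within the later arrays they ran from 0.19 (Ngfr with Prph) to 0.87 (Sox10 with Mbp). Over the 64 arrays Uchl1 had r from 0.01 to 0.16 with these 5 genes. For Uchl1 the sign turned between the scan dates: with Mbp r was 0.46 within the 7 and 30 day arrays and -0.32 within the later ones, with Sox10 0.29 and -0.36, and with Prph 0.35 and -0.27. Over the deviations of the 64 arrays, Sox10 had r = 0.79 with Mbp, 0.61 with Ngfr, 0.50 with Gap43 and 0.48 with Prph. Prph had 0.56 with Gap43. Without the 2 arrays farthest from the median, Sox10 had 0.75 with Mbp and 0.58 with Ngfr, and Prph had 0.47 with Gap43. The gene most like Sox10 was Cmtm5 (r = 0.91, rank correlation 0.88), a membrane protein of myelin-forming glia, followed by Ppp1r14a, a myosin phosphatase inhibitor of smooth muscle, and Slc2a4, a glucose transporter of muscle and fat (0.84 each). The median r of Sox10, Mbp and Ngfr was 0.63, 0.58 and 0.51 with the other Schwann cell markers, members among them, and 0.57, 0.57 and 0.50 with 7 smooth muscle markers.

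S100b varied with genes of fat. Its 3 closest genes were Sncg (0.78), a synuclein of fat cells and peripheral neurons, Acvr1c (0.77), a receptor of fat cells, and Agt (0.77), which encodes angiotensinogen, and its r with Sox10 was 0.35. With 5 adipocyte markers its median r was 0.52, from -0.17 to 0.76, while Sox10 had a median of -0.08 with the same markers. Sncg followed S100b with r = 0.92 within the 7 and 30 day arrays and 0.36 within the later ones. Beside the rise of S100b with ADSCs from 30 to 90 days, 0 of 6 adipocyte markers rose and 2 fell (median -0.74). Of all 30367 probes 5412 were called higher and 3127 lower in this step, in which the scan date also changed. The summed level of the adipocyte list ran from 4.85 to 5.95 at 30 days and from 4.48 to 4.96 at 90 days. Ngfr was most like Nptxr (0.74), Rtn4r (0.70) and Cmtm5 (0.70), Prph like Fn3k (0.75), Nptxr (0.68) and Ppp1r3c (0.68), and Gap43 like Thsd7a (0.64) and Slc35f1 (0.63).

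**Figure D4:**
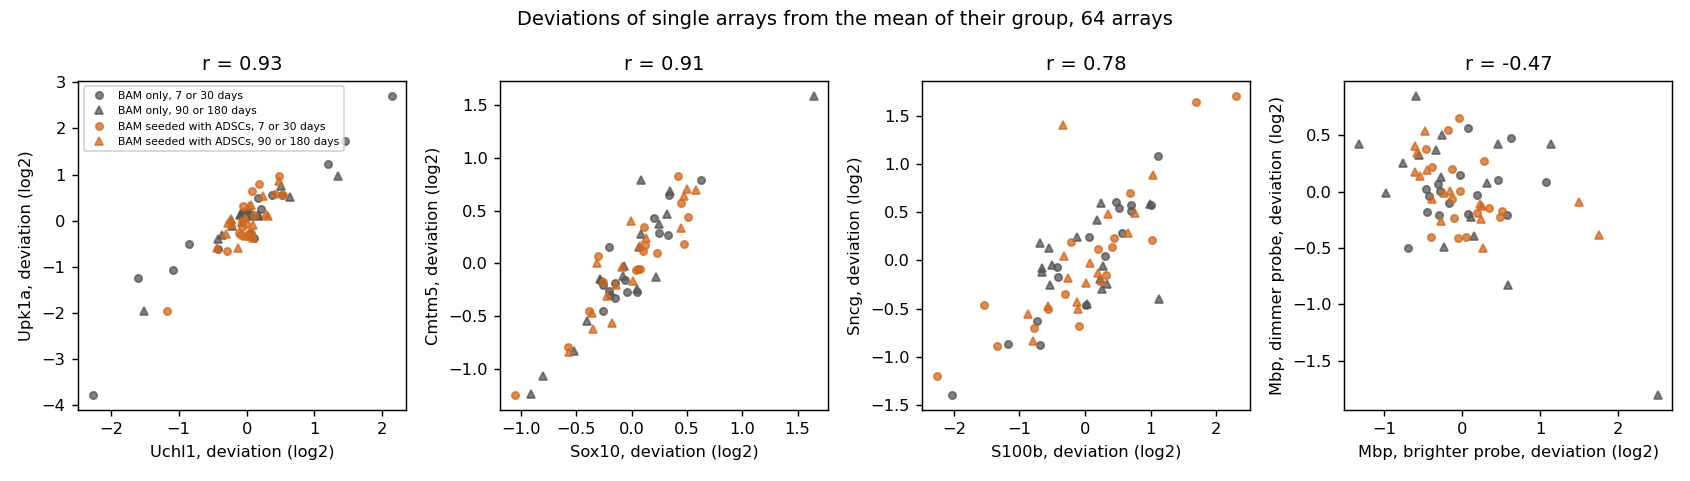
Deviation of each array from the mean of its group (log2) for a member on the horizontal axis and a second gene or probe on the vertical axis, over 64 arrays coloured by graft and with triangles for 90 and 180 days. Uchl1 followed Upk1a (r = 0.93), Sox10 followed Cmtm5 (0.91) and S100b followed Sncg (0.78), while the 2 probes of Mbp ran in opposite directions (-0.47).

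**Figure D5:**
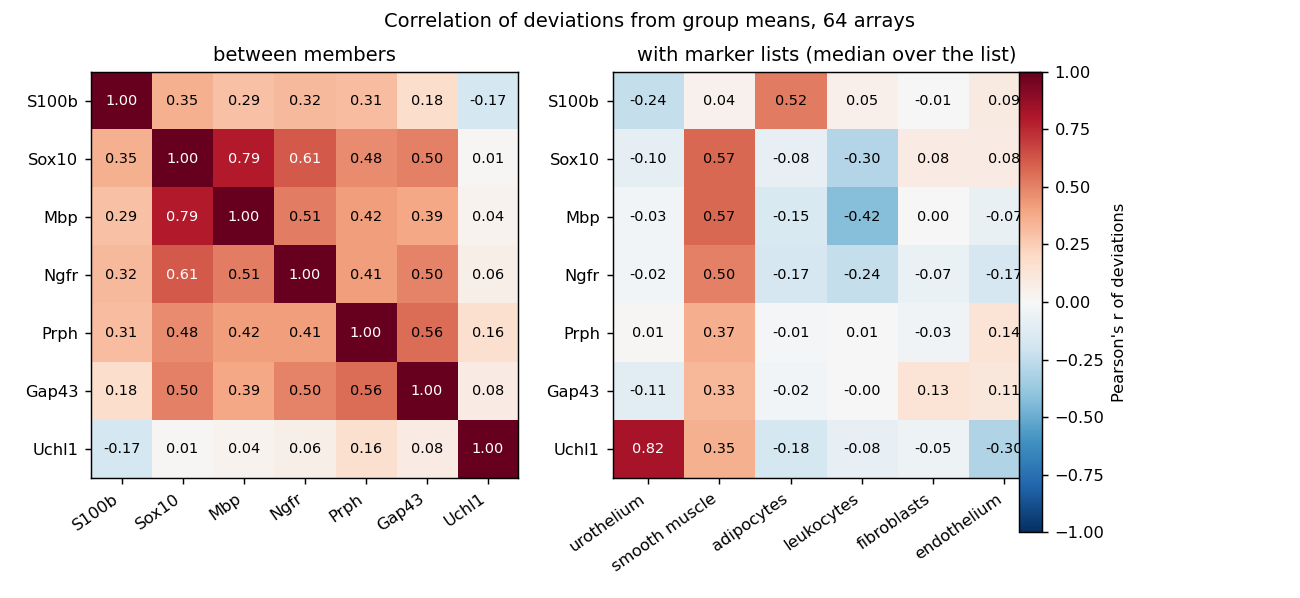
Pearson's r of the deviations between the 7 members (left) and the median r of each member with markers of urothelium, smooth muscle, adipocytes, leukocytes, fibroblasts and endothelium (right). Uchl1 had 0.82 with urothelium and S100b 0.52 with adipocytes.

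A single array of BAM only at 90 days stood apart across the set, and it was singled out after its values were seen. Replicate 5 was the highest of its group for 6 of 7 members and the lowest for Uchl1. Sox10 was at -0.47 there against -3.02 to -1.86 on the other 7 arrays, Mbp at 2.39 against -1.43 to 0.47, Prph at -0.71 against -2.51 to -1.26 and Gap43 at -2.13 against -4.72 to -2.88. Uchl1 was at 3.05 against 4.32 to 5.90. Summed over marker lists, the array was above the others for Schwann cells (2.95 against 0.02 to 1.37, a list that holds members), skeletal muscle (4.31 against 0.17 to 2.43) and mesenchymal stromal cells (3.75 against 2.63 to 3.27). It was below them for urothelium (4.44 against 6.17 to 7.48), adipocytes (3.77 against 4.29 to 5.24) and leukocytes (4.06 against 5.19 to 6.19). The summed neuron list was also below (3.75 against 4.38 to 5.95). That sum of unlogged signals mostly follows Uchl1 (group medians 4.58 for the list and 4.51 for Uchl1), so it does not show less neuronal RNA. Prph and Gap43, of the same list, were the highest of the group on this array. Without it the rise of Sox10 from 30 to 90 days on BAM only was 0.45 (adjusted p = 0.0375), that of Ngfr 0.85 (adjusted p = 0.00302), and the graft differences of Sox10, Mbp and Prph at 90 days were 0.39, 0.48 and 0.52 (lowest adjusted p = 0.0796).

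The other genes of nerve were read from 6 lists of 107 genes, of which 100 had a probe and none was a member. Between grafts 10 of 100 were called at 7 days (7.73% of all probes), 4 at 30 days (1.67%), 12 at 90 days (12.5%) and 1 at 180 days (2.44%). Only 59 of the 100 were well above background on at least 32 arrays, with 6 of 19 axon and neuron genes and 5 of 18 transmitter genes among them. Their medians were -0.15, 0.30, -0.37 and 0.08 at the 4 days, where those of all probes were -0.16, 0.11, -0.27 and 0.06.

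Among 15 myelinating Schwann cell genes, Mal was higher with ADSCs at 7 days (1.99, SE 0.40, adjusted p = 0.000178). Mal encodes a proteolipid of myelin and also of apical epithelial membranes. At 90 days Mag, the myelin-associated glycoprotein, was lower with ADSCs (-0.86, SE 0.17, adjusted p = 5.51e-05), with all 8 seeded arrays below all 8 unseeded ones. At 30 days Ugt8 and Gjb1 were called higher, but neither was well above background on any unseeded array, so no fold is given. Among 14 genes of immature and repair Schwann cells, the adhesion molecule Cadm4 was lower at 7 days (-1.14) with no overlap, and Tfap2a was higher at 30 days (1.29, a call lost under quantile normalisation). Gfap at 7 days and Fabp7, Cadm4 and Cdh19 at 90 days were called lower with 0 to 2 of 8 arrays well above background in at least 1 of the grafts, and no fold is given.

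Of 16 neurotrophic and guidance ligands, Nrg1, a signal for Schwann cell survival and myelination, was higher with ADSCs at 30 days (1.88, SE 0.39, adjusted p = 0.00159). Which cells of the wall gave this RNA was not tested. Sema3c (0.77) was higher and Pspn (-0.80) lower at 7 days, and at 90 days Pspn was called higher and Bdnf lower with no unseeded array well above background. Of 18 receptors, Erbb2 (0.99), Robo2 (0.85) and Sort1 (0.59) were higher at 7 days and Robo2 was lower at 90 days (-0.71).

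Of 18 transmitter and peptide genes, Th, the rate-limiting enzyme of catecholamine synthesis, was lower with ADSCs at 7 days (-0.81) and at 90 days (-1.18), in both with no overlap between the grafts. The vesicular transporter Slc18a2 was higher at 90 days (0.63) and lower at 180 days (-0.62), and Slc18a3 was lower at 90 days (-1.02). Of 19 axon and neuron genes only Mapt, the microtubule protein tau, was called (0.79 at 90 days). Of the calls given here with a value, those of Th at both days, Mag and Cadm4 at 7 days held under all 10 alternative scalings and fits run on these lists. Those of Mal, Sema3c, Erbb2 and Nrg1 were lost in the fit of only the 2 groups compared, and those of the others were lost under at least normexp or quantile normalisation. Genes past the 2 strongest rises and falls of a day were named after their values were seen, because few were called.

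From 7 to 30 days 15 of these 100 genes were called on BAM only (8.65% of all probes) and 11 with ADSCs (8.06% of all probes). On BAM only Stmn2, a tubulin regulator of growing axons, rose by 2.19 and Nefm, a neurofilament, by 2.10, while Tubb3 fell by 1.00. P2rx3, the ATP receptor of bladder sensory axons, rose by 1.72 on BAM only and by 1.28 with ADSCs, and Calca, which encodes the peptide CGRP, rose by 1.52 on BAM only. From 30 to 90 days 51 of the 100 rose on BAM only (35.2% of all probes) and 26 with ADSCs (17.8%). In either direction 56 and 33 were called (44.7% and 28.1% of all probes), of which 22 and 18 were well above background on at least 32 arrays. Normexp background correction ended the calls of Nefm, P2rx3 and Calca. These genes were named after their values were seen.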

How the data were processed

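Total RNA of 64 reconstructed bladder walls was read on 1-colour Agilent rat arrays. The labels give 10 operated rats a group. The study's methods give a larger number operated and 10 bladders a group for RNA, of which 8 were chosen for arrays. These 8 arrays a group were analysed here as biological replicates. The deposited intensity values are the processed signals of Agilent Feature Extraction 12.0.1.1, after its own background subtraction. The authors' series matrix holds intensities whose log2 values equal those of the scanner within 0.02 in 61 of 64 columns. The other 3, of BAM seeded with ADSCs at 7 days, lie lower, with median log2 ratios of -3.30 to -3.29, and 1 column of BAM only at 180 days lacks 26650 spots; the matrix served only as an alternative.

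From the intensities, control spots and outlier spots were dropped, log2 signals were set relative to the array's 75th percentile, and spots of a probe were averaged. RefSeq accessions named 18758 of 30367 gene probes. limma 3.58.1 in R 4.3.3 fitted group means over all 64 arrays, with Benjamini-Hochberg adjustment over all probes in each contrast. Calls were made at adjusted p below 0.01 with more than 1.5-fold change (for differences between days of the graft difference, the adjusted p alone). Tested on simulated data for the 7 day contrast of 30367 probes, the fit recovered 38% of probes changed by 1 and 83% of those changed by 2 on the log2 scale. An interval is the estimate with 1.96 SE on each side. A probe counted as well above background, or as saturated, on arrays that flagged 50% or more of its spots so. Likeness between genes is the correlation of deviations from group means over 64 arrays among 11168 named genes well above background on at least 32 of them. The named genes are the members, the 3 genes most like each, and the 2 strongest rises and falls of each graft contrast among the lists; some of these are not reported here.

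The members, the lists of nerve genes and the marker lists were chosen with earlier results of these data known, so the lists' counts are descriptions. Arrays have no count depth, and their number limits the precision. Replicate numbers did not pair the arrays: between the groups compared, 0 to 4 of 8 same-numbered pairs had a correlation of deviations above 0.1. Promoter windows came from RefSeq (GRCr8). The array design's own build differs, so no gene coordinates are given. Background correction, normalisation, filters, the fit and single arrays left out in turn were varied.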

Additional observations from a re-analysis of the deposited data

Results flagged for a closer look

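In 72 groups of 8 arrays (9 probes, 8 groups), 7 held an array whose gap to its nearest neighbour exceeded Dixon's critical share of the group's range, a limit that chance passes in about 1 of 20 groups. On BAM only, S100b by its dim second probe was at -3.35 on replicate 8 at 90 days (others -5.37 to -4.98), Sox10 at -0.47 on replicate 5 at 90 days (others -3.02 to -1.86), and Mbp by its second probe at -1.65 on replicate 1 at 30 days (others -2.42 to -2.06). With ADSCs, Mbp by its first probe was at 1.76 on replicate 5 at 90 days (others -0.60 to 0.27) and at 0.97 on replicate 8 at 180 days (others -1.14 to -0.26). Uchl1 was at 3.50 on replicate 3 with ADSCs at 7 days (others 4.56 to 5.21), and Gap43 at -1.57 on replicate 1 with ADSCs at 30 days (others -3.82 to -2.90).

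The measured graft difference of Uchl1 at 180 against 7 days gave -1.80 on the log2 scale (adjusted p = 0.00553, limma). Its spot was saturated on 8 of 8 unseeded and 4 of 8 seeded arrays at 180 days, so this value does not show that the difference itself changed.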

How the results depend on the processing

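Counts of called members out of 7 changed in these cases. Fitting only the 2 groups compared gave 0 in place of 1 between grafts at 7 days, 1 in place of 2 on BAM only from 30 to 90 days, 1 in place of 3 with ADSCs from 30 to 90 days, and 1 in place of 0 with ADSCs from 7 to 30 days. Quantile normalisation gave 0 in place of 1 between grafts at 90 days and 1 in place of 2 on BAM only from 30 to 90 days, where centring on the median of all probes also gave 1. The mean of a gene's probes gave 2 in place of 1 on BAM only and 1 in place of 0 with ADSCs from 7 to 30 days. An adjusted p below 0.05 gave 4 on BAM only and 5 with ADSCs from 30 to 90 days, and 1 in place of 0 on BAM only from 90 to 180 days and for the graft difference between 30 and 7 and between 180 and 90 days. Without single arrays the count ran from 0 to 1 between grafts at 90 days, from 1 to 2 on BAM only from 30 to 90 days, from 0 to 1 on BAM only from 90 to 180 days (1 without replicate 8 at 90 days), and from 0 to 1 for the graft difference between 180 and 7 days. That last call, of Uchl1, ended without any of 7 of 32 arrays (BAM with ADSCs at 7 days, replicates 1, 4 and 6; BAM only at 7 days, replicates 3, 6 and 7; BAM only at 180 days, replicate 7), with adjusted p values up to 0.0156. The Sox10 rise on BAM only ended without replicate 1 or 4 at 30 days or replicate 1 or 5 at 90 days. The cause was not tested.

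The replicate block left 1, 0, 1 and 0 called members between grafts at 7, 30, 90 and 180 days, and it changed no count of members in any contrast. The dim second S100b probe, called higher on BAM only from 7 to 30 days (1.08), turned to -0.17 under normexp. Genes near background, Ngfr and Gap43 among the members at 90 and 180 days, have differences that are not exact. Uchl1 is limited by saturation on 35 of 64 arrays. On BAM only the median local background was 50 units at 30 days and 342.5 at 90 days. In that step 10688 probes were called higher, against 2556 under normexp and 2039 with dim probes left out. Between grafts at 90 days 2613 probes were called lower with ADSCs, against 569 under normexp and 579 with dim probes left out. The part of the background in the differences of genes near it was not tested.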

Other observations

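Among 5 markers of the nerve sheath cells around Schwann cells, Sox9 was higher with ADSCs at 180 days (0.79, SE 0.14, adjusted p = 4.05e-05, limma) and Itgb4 at 30 days (1.05, SE 0.22, adjusted p = 0.00167). The median of the 5 was 0.18 at 180 days and 0.24 at 30 days, where 2.44% and 1.67% of all probes were called in either direction. Urothelial basal cells also carry Itgb4. At 90 days the smooth muscle genes Myh11 (1.09), Actg2 (1.00) and Tagln (1.00) were higher with ADSCs, 3 of 7 measured markers of that tissue. In that contrast 3.88% of all probes were called higher. The rest of the list was not called, with Des at 0.52, Smtn at 0.45, Cnn1 at -0.02 and Acta2 at -0.32. Quantile normalisation ended the 3 calls of Myh11, Actg2 and Tagln and turned the direction of Actg2. The Itgb4 call was lost in the fit of only the 2 groups compared.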
